A study of Homo sapiens with 10 samples.

Results

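The genes described here are 48 interferon-stimulated and RNA sensing genes, measured in LS180 cells in which RNASE1, a secreted ribonuclease, was repressed. Members were found by their gene symbol, the last part of each identifier in the deposited count table, and all 48 symbols were present among its 58870 genes. LS180 is an established human colorectal cancer line, here carrying CRISPR interference, in which a catalytically inactive Cas9 is guided to a promoter and represses transcription. There were 3 lines with guides against RNASE1 (RNASE1_sg1, RNASE1_sg2 and RNASE1_sg3, below sg1, sg2 and sg3, together the guide lines) and 2 lines with non-targeting guides (NTC2 and NTC1, the NTC lines). Each line gave 1 library lettered B and 1 lettered A, so there were 6 guide libraries and 4 NTC libraries. All lines are derivatives of LS180, were untreated with drugs and grew in the same medium, and the labels do not say whether a line is a clone or a pool. The labels do not tell whether B and A are separate cultures of a line. Where single libraries were tested, the p-values therefore reflect only how far these libraries scatter, which may be technical. For guide against NTC lines, B and A were summed per line, and the p-values reflect scatter between lines, with 3 guide and 2 NTC lines. The genes were compared between guide and NTC lines, among the guide lines, between the NTC lines, and between letters.

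Cells detect foreign or misplaced RNA with cytosolic helicases such as MDA5 (the product of IFIH1), with the endosomal receptor TLR3 and with the kinase PKR (EIF2AK2). The adaptors MAVS and TICAM1 pass the signal through the kinases TBK1 and IKBKE to IRF3 and IRF7, which induce interferons. Secreted interferons then act through receptors and a complex that holds STAT2 and IRF9, which binds the interferon-stimulated response element in the promoters of antiviral genes such as ISG15, the IFIT genes, the OAS genes and MX1.

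RefSeq promoters on GRCh38.p14, 250 bases before to 50 after a gene's start, were found for 39 members, several with more than 1 start, which gave 49 promoters. The core of the response element was searched for on both strands as GAAA, any 2 bases and GAAA again. It was found in 27 of the 49 promoters (55.1%), belonging to 23 members, against 3.57% of all 35116 promoters of the same length. The core of the STAT dimer site, TTCNNNGAA, which is palindromic and can overlap the first motif, was found in 12 of the 49 promoters (24.5%), belonging to 11 members, against 7.66% of all promoters. The stretches below show the bases upstream of the start around the response element cores, in capitals. They are those of OAS3 and BST2, on which the comparisons of lines turn, and of the abundant ISG15 and LGALS3BP. The last are those of IFIT1, low in these cells at 224 counts in all libraries, and of IFI44L, which had no count.
OAS3, chr12:112938311-112938473, plus strand: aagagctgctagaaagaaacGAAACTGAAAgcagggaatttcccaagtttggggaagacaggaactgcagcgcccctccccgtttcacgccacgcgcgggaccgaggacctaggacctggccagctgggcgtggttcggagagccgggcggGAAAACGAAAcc
BST2, chr19:17405725-17405780, minus strand: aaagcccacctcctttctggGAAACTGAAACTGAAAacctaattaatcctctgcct
ISG15, chr1:1013364-1013419, plus strand: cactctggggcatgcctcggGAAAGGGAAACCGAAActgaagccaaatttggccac
LGALS3BP, chr17:78979952-78980001, minus strand: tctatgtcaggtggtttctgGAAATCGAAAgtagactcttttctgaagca
IFIT1, chr10:89392487-89392549, plus strand: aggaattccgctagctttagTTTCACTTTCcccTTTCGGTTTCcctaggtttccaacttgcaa
IFI44L, chr1:78620264-78620404, plus strand: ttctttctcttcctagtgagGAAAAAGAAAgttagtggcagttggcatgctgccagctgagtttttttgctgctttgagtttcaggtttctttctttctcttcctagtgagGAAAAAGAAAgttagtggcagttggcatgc
In OAS3 the pair of matches lay far apart, whereas in BST2 and ISG15 they overlapped, sharing 1 GAAA. IFIT1 carried its pair on the other strand, where the core reads TTTC, any 2 bases and TTTC. IFI44L held the same motif and flanks at both of its matches. A match describes letters in a window and does not show binding.

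Library totals ran from 39026564 to 45050950 counts. Levels are given as CPM, the depth-scaled count, adjusted by TMM, a normalization for library composition, and are relative to the library total, so fewer cells with a transcript and less transcript per cell cannot be told apart. RNASE1 was at 1.38 CPM in library B and 1.02 CPM in library A of sg1. It was at 3.75 and 3.36 CPM in sg2, and at 1.57 and 1.66 CPM in sg3. In NTC2 it was at 22.9 and 19.1 CPM, and in NTC1 at 23.7 and 16.4 CPM. All guide libraries lay below all NTC libraries, and the log2 fold change was -3.26 (SE 0.23, adjusted p = 8.37e-05, edgeR's quasi-likelihood test on counts summed per line). The 10 colon epithelial markers summed to 6187 to 7733 CPM in guide libraries and 6218 to 7749 CPM in NTC libraries. Of 8 leukocyte markers, PTPRC and FCGR3A were at 0 in every library, and the list summed to 35.8 to 46.1 CPM in guide libraries and 43.0 to 46.9 CPM in NTC libraries. Of 5 fibroblast markers COL1A2 was at 0, with sums of 2.88 to 4.04 CPM in guide libraries and 2.57 to 3.30 CPM in NTC libraries. Of 4 endothelial markers KDR was at 0, with sums of at most 0.358 CPM in guide libraries and 0.285 CPM in NTC libraries.

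The 48 genes together took 0.198% to 0.219% of the counts of a library. They summed to 2058 to 2166 CPM in guide libraries and 2007 to 2119 CPM in NTC libraries, ranges that overlap. LGALS3BP, a secreted galectin-binding glycoprotein, made up the largest share. By mean CPM, 4 members were at 100 or more, 21 lay from 10 to under 100, 15 from 1 to under 10, and 7 above 0 but under 1. IFI44L, an interferon-induced gene often used in interferon signatures, had no count in any library. A count of 0 allows up to 3 counts, at most 0.0769 CPM, and such floors cover counting error only.

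Exon length was that of all annotated exons of a gene merged. It can exceed the length of the transcripts present, so ranks per kilobase depend partly on annotation. Per kilobase of exon, LGALS3BP stood highest at 175 CPM per kb, followed by IFITM3 at 128 CPM per kb. Next were IFITM1 at 42.6, ADAR at 39.2 and ISG15 at 37.8 CPM per kb. The IFITM proteins block entry of viruses at membranes, ADAR edits adenosine in double-stranded RNA, and ISG15 is a ubiquitin-like modifier. Sensors and adaptors lay lower, MAVS at 9.70, EIF2AK2 at 6.91, TICAM1 at 6.85, IFIH1 at 1.41, TLR3 at 1.28 and DHX58 at 1.24 CPM per kb. The lowest members with counts were OAS2 at 0.0316, SAMD9L at 0.0267 and XAF1 at 0.0260 CPM per kb. IFIT1, IFIT2 and IFIT3, which bind foreign RNA or join complexes that do, lay between 0.114 and 0.243 CPM per kb, while their relative IFIT5 was at 4.59 CPM per kb. Exons of EIF2AK2, IRF1, PARP9, SAMHD1 and TBK1 overlap genes with counts on the other strand, and reads there cannot be told apart.

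**Figure D1:**
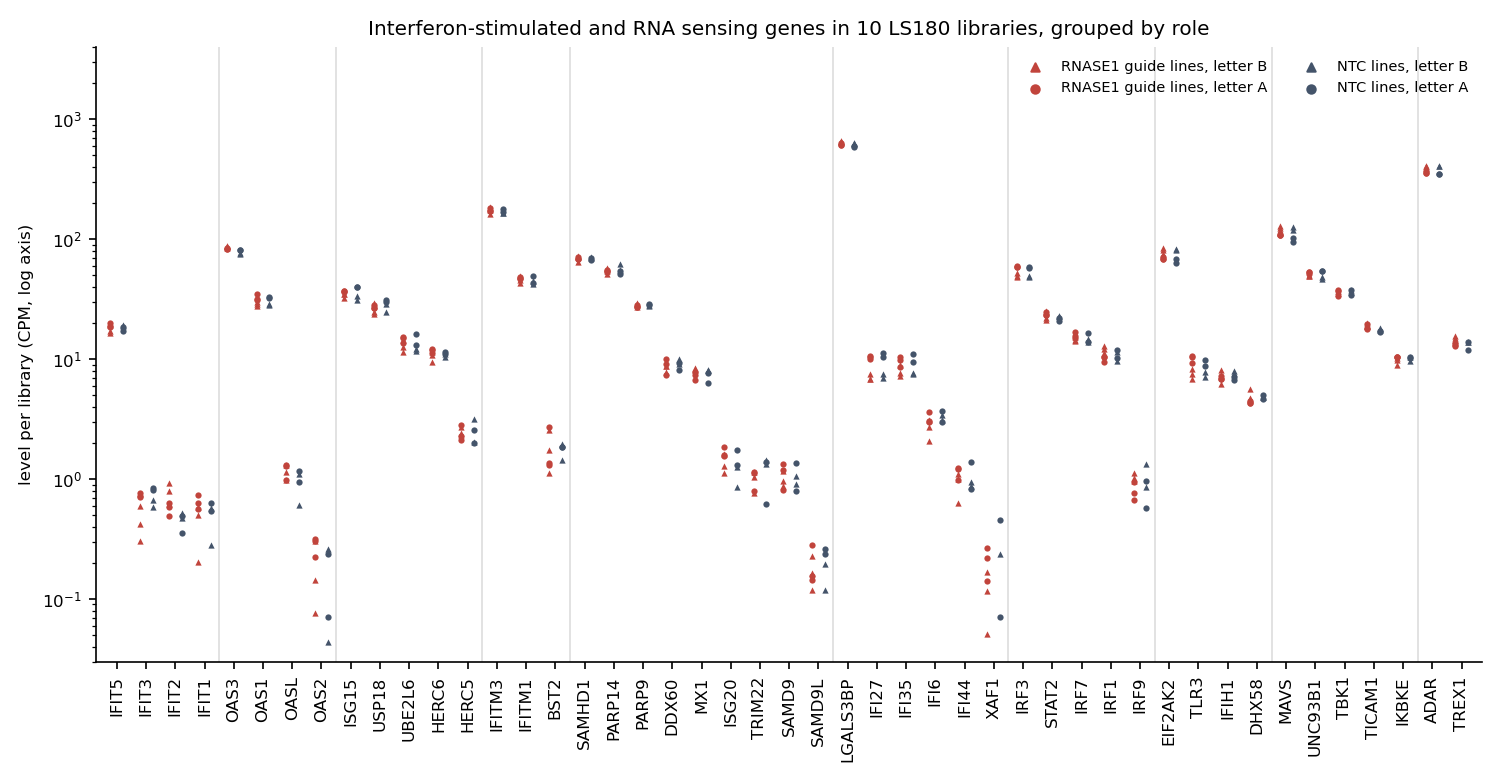
CPM of the 47 members with counts in each of 10 libraries (log axis), grouped by role with grey lines between roles and ordered by level within a role; red marks the guide lines and dark blue the NTC lines, triangles letter B and circles letter A. LGALS3BP and ADAR stand near the top in every library, and a 0 (XAF1 in library B of NTC1) is not drawn.

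The plot of levels by library shows the red and dark blue points of a gene lying on each other for most members, with wide scatter below 1 CPM. In the comparison of guide lines with NTC lines, 47 members were tested and none was called at an adjusted p under 0.05, by edgeR or by DESeq2, where 0.0231% of all 17335 genes tested were called by edgeR. At an unadjusted p under 0.05 there were 2 members, OAS3 and TICAM1, both higher in guide lines, where 7.98% of all genes passed. Fold changes were positive for 28 members and negative for 19, and their median log2 fold change was 0.02, against -0.00083 for all genes tested. The 95% interval stayed inside 1.5-fold, up or down, for 38 of the 47 members, and inside 2-fold for 43. Among the 25 members at 10 CPM or more, log2 fold changes ran from -0.10 to 0.12, and their intervals covered 0.863-fold to 1.15-fold at the widest. The upper bound was under 1.5-fold for 40 of the 47 members.

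**Figure D2:**
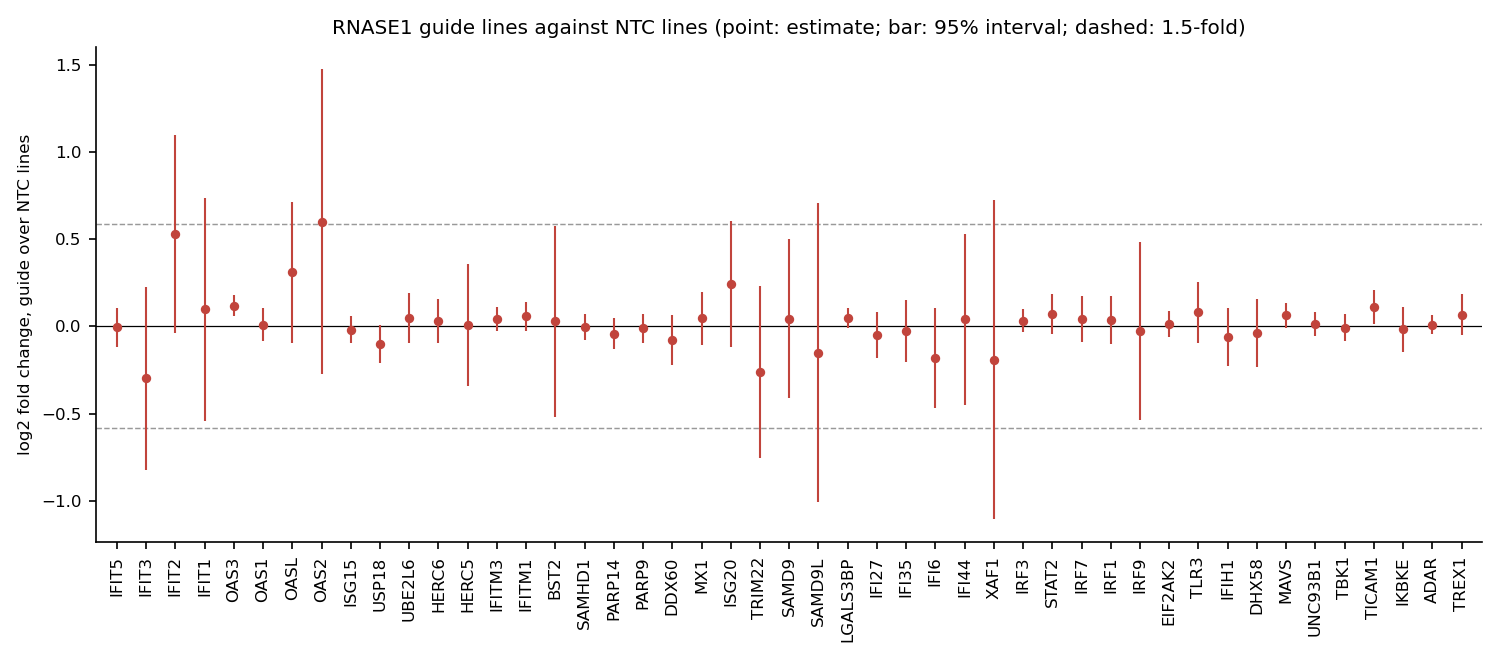
Log2 fold change of guide over NTC lines (points) with 95% intervals (bars) for 47 members, grouped by role in the same order as the levels; dashed lines mark 1.5-fold. Intervals are narrow for the abundant members such as LGALS3BP, ADAR and OAS3 and wide for those near or under 1 CPM such as OAS2, IFIT1 and XAF1.

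As the plot of fold changes shows, the intervals of OAS3 and TICAM1 lay wholly above 0. Among the synthetases of 2-5A, the second messenger that activates RNase L, 4 of 4 had positive fold changes, and none was called. OAS3 was at 87.3 CPM in library B and 82.7 CPM in library A of sg1, at 88.0 and 83.1 CPM in sg2, and at 85.2 and 84.3 CPM in sg3. It was at 75.9 and 81.2 CPM in NTC2 and at 76.0 and 81.4 CPM in NTC1. All 6 guide libraries lay above all 4 NTC libraries, which held for 0.946% of genes tested in either direction and, among members, for OAS3 alone. Its mean was 85.1 ± 0.423 CPM in guide lines (SD, n = 3) and 78.6 ± 0.111 CPM in NTC lines (SD, n = 2), a log2 fold change of 0.12 (SE 0.03, adjusted p = 0.254, edgeR). The gap was 0.20 (log2) among B libraries alone and 0.03 among A libraries alone. OAS1 differed by 0.01 (SE 0.04) on the log2 scale. OASL, a catalytically inactive relative, had a log2 fold change of 0.31 (SE 0.19), and OAS2 one of 0.60 (SE 0.40) on 84 counts in all 10 libraries.

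TICAM1, the adaptor of TLR3 also known as TRIF, was at 19.0 CPM in B and 19.5 CPM in A of sg1, at 19.96 and 17.7 CPM in sg2 and at 19.0 and 18.1 CPM in sg3. It was at 17.6 and 17.3 CPM in NTC2 and at 18.2 and 16.9 CPM in NTC1. Within each letter every guide library lay above every NTC library, although the pooled ranges overlapped. The log2 fold change was 0.11 (SE 0.05, adjusted p = 0.568, edgeR). Across genes, fold changes in this comparison were higher at higher transcript GC content (Spearman 0.503 over 9523 genes, which share the libraries), and after correction for GC that of TICAM1 was 0.07 and that of OAS3 0.10. MAVS, the mitochondrial adaptor of the cytosolic helicases, was at 119.7 CPM in B and 109 CPM in A of sg1, at 123 and 109 CPM in sg2 and at 128 and 109 CPM in sg3. It was at 119.9 and 95.5 CPM in NTC2 and at 126 and 103 CPM in NTC1. Guide and NTC libraries overlapped in B and were apart in A, and the log2 fold change was 0.06 (SE 0.03, adjusted p = 0.666, edgeR). How many of all genes were apart within only 1 letter was not counted, so such statements, here and below, are descriptions. The kinases TBK1 and IKBKE had log2 fold changes of -0.01 (SE 0.04) and -0.02 (SE 0.06). UNC93B1, which carries endosomal Toll-like receptors to their compartment, had 0.01 (SE 0.03).

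None of the 4 RNA sensors passed the test. Log2 fold changes were 0.08 (SE 0.08) for TLR3, 0.02 (SE 0.03) for EIF2AK2, -0.06 (SE 0.08) for IFIH1 and -0.04 (SE 0.09) for DHX58, the helicase LGP2. The 95% intervals of all 4 lay within 1.5-fold. The 2 members that limit responses to self nucleic acid were likewise not called. ADAR was at 395 CPM in B and 355 CPM in A of sg1, at 404 and 369.8 CPM in sg2 and at 405 and 356 CPM in sg3. It was at 404 and 351 CPM in NTC2 and at 407 and 349 CPM in NTC1. Every B library lay above every A library. The groups of lines overlapped in B, and in A all guide libraries were above both NTC libraries. The log2 fold change of ADAR was 0.01 (SE 0.03). TREX1, an exonuclease of cytosolic DNA, had 0.07 (SE 0.05), but its exons lie wholly within those of ATRIP on the same strand and its counts were not whole in any library, so its level is uncertain.

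The transcription factors showed no call among 5 members. STAT2 had a log2 fold change of 0.07 (SE 0.05), IRF7 0.04 (SE 0.06), IRF1 0.04 (SE 0.06), IRF3 0.03 (SE 0.03) and IRF9 -0.03 (SE 0.24). Of the ISG15 system, which attaches and removes that modifier, none of 5 members was called, and the intervals of all 5 lay within 1.5-fold. USP18, which removes ISG15 and dampens receptor signalling, was at 29.4 CPM in B and 26.6 CPM in A of sg1, at 24.0 and 28.4 CPM in sg2 and at 24.6 and 26.8 CPM in sg3. It was at 28.98 and 31.1 CPM in NTC2 and at 24.7 and 30.1 CPM in NTC1. The groups overlapped in B, and in A all guide libraries were below both NTC libraries. USP18 had a log2 fold change of -0.10 (SE 0.05, adjusted p = 0.654, edgeR). Its counts share reads with the near-identical USP41 and are uncertain. ISG15 itself had -0.02 (SE 0.04).

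Among the IFIT genes the members under 1 CPM pointed both ways. IFIT2 was at 0.921 CPM in B and 0.630 CPM in A of sg1, at 0.797 and 0.582 CPM in sg2 and at 0.620 and 0.490 CPM in sg3. It was at 0.475 and 0.496 CPM in NTC2 and at 0.525 and 0.357 CPM in NTC1. Groups were apart in B and overlapped in A, with a log2 fold change of 0.53 (SE 0.26, adjusted p = 0.647, edgeR). IFIT3 was at 0.307 CPM in B and 0.702 CPM in A of sg1, at 0.422 and 0.716 CPM in sg2 and at 0.596 and 0.771 CPM in sg3. It was at 0.665 and 0.850 CPM in NTC2 and at 0.590 and 0.808 CPM in NTC1. Reads of IFIT2 cannot be told apart from those of LIPA where their exons overlap on opposite strands. For IFIT3 the groups were apart in A, in the opposite direction to IFIT2, with a log2 fold change of -0.30 (SE 0.24, adjusted p = 0.801, edgeR). IFIT1 had 0.10 (SE 0.30) and IFIT5 -0.01 (SE 0.05). The 4 IFIT genes therefore had 2 positive and 2 negative fold changes.

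LGALS3BP was at 658 CPM in B and 612 CPM in A of sg1, at 649 and 611 CPM in sg2 and at 661 and 631 CPM in sg3. It was at 639 and 600.0 CPM in NTC2 and at 637 and 589 CPM in NTC1. Within each letter all guide libraries were above all NTC libraries, by a log2 fold change of 0.05 (SE 0.03, adjusted p = 0.680, edgeR). That of LGALS3BP was 0.00974 after correction for GC, and 0.0171 without library A of NTC1, a fit in which NTC1 had letter B only. IFI6, an interferon-induced membrane protein, was at 3.10 CPM in B and 3.63 CPM in A of sg1, at 2.06 and 3.07 CPM in sg2 and at 2.69 and 3.01 CPM in sg3. In NTC2 it was at 3.44 and 3.70 CPM and in NTC1 at 3.13 and 3.02 CPM. The A libraries overlapped, and in B all guide libraries were below both NTC libraries. The log2 fold change of IFI6 was -0.18 (SE 0.13, adjusted p = 0.780, edgeR). Of the membrane restriction genes, IFITM3 was at 162 and 172 CPM in B and A of sg1, at 184 and 172 CPM in sg2, and at 175 and 182 CPM in sg3. It was at 165 and 178 CPM in NTC2 and at 166 and 169.5 CPM in NTC1, overlapping the guide libraries. IFITM3 had a log2 fold change of 0.04 (SE 0.03) and IFITM1 one of 0.06 (SE 0.04), both with counts that were not whole in any library. The 9 other antiviral effectors, with MX1 at 0.05 (SE 0.07) and SAMHD1 at -0.0042 (SE 0.03), ran from -0.26 for TRIM22 to 0.24 for ISG20, with 3 positive and 6 negative.

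On levels with B and A summed per line, 11 of the 47 members (23.4%) had all 3 guide lines beyond both NTC lines, 8 higher and 3 lower, where 24.5% of all genes tested did. The same direction within both letters held for 3 members (6.4%), OAS3, TICAM1 and LGALS3BP, all higher, where 3.80% of all genes tested did. The members' shares lay near those of all genes, and the second rests on 3 members.

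Other genes of the pathway gave the same count of calls. Of 57 such genes, 42 were tested and none was called, where 0.0231% of all genes tested were called by edgeR. Before adjustment, 5 of these 42 passed a p of 0.05 by edgeR, where 7.98% of all genes did. For these 5, log2 fold changes were -0.16 (SE 0.06) for the receptor chain IFNAR2, -0.10 (SE 0.04) for NMI and -0.10 (SE 0.04) for the ribonuclease RNASET2. PARP12 had 0.08 (SE 0.03) and TRIM5 0.11 (SE 0.05). The 6 interferon ligands on the list, IFNB1, IFNL1, IFNL2, IFNL3, IFNK and IFNE, had no count in any library. The endosomal receptors TLR7, TLR8 and TLR9 and the DNA sensor AIM2 were also at 0, and CGAS had 17 counts in all 10 libraries. The receptor kinase JAK1 was at 126 CPM and DDX58, the helicase RIG-I, at 10.7 CPM on average.

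**Figure D3:**
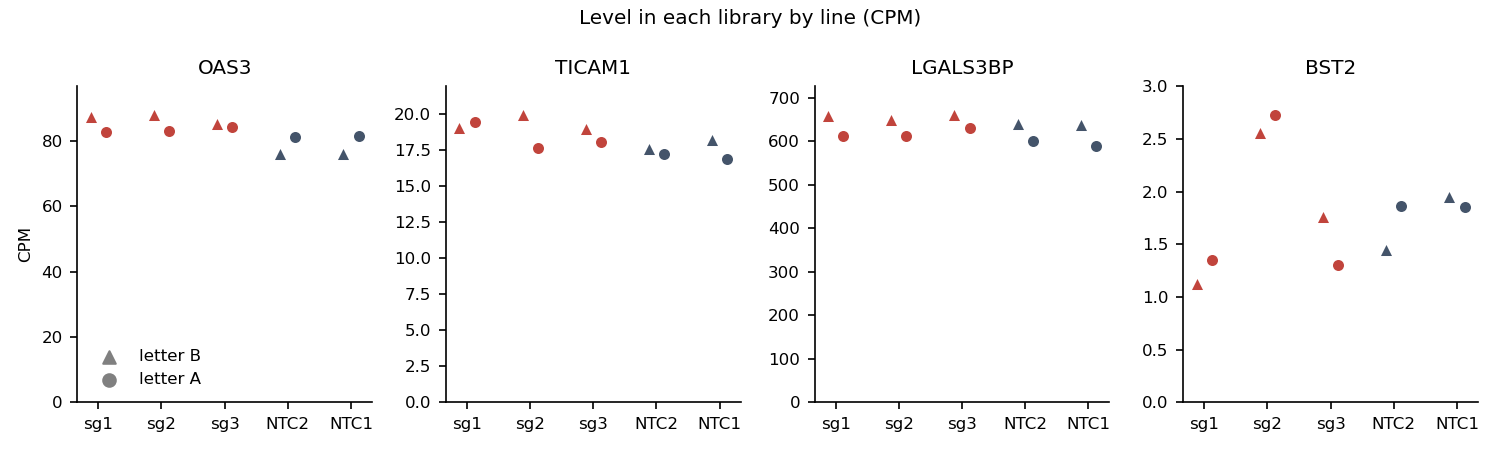
CPM of OAS3, TICAM1, LGALS3BP and BST2 in each library, with lines along the axis, guide lines in red and NTC lines in dark blue, triangles for letter B and circles for letter A. OAS3 is above the NTC libraries in all 6 guide libraries, and BST2 is highest in sg2 at 2.55 and 2.73 CPM and lowest in sg1.

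The plot by line shows BST2 as the member in which lines stood furthest apart. BST2 encodes tetherin, which holds budding viruses at the cell surface, and its gene lies at chr19:17402939-17405648 on the minus strand (GRCh38, GENCODE 29). It was singled out for this spread with the values known, so its levels are a description. BST2 was at 1.13 CPM in B and 1.36 CPM in A of sg1, at 2.55 and 2.73 CPM in sg2 and at 1.76 and 1.31 CPM in sg3. It was at 1.45 and 1.86 CPM in NTC2 and at 1.95 and 1.85 CPM in NTC1. Both sg2 libraries lay above all others, and both sg1 libraries below all NTC libraries. These levels rest on 44 to 122 counts per library. Log2 fold changes against the NTC lines were -0.51 (SE 0.21) for sg1, 0.57 (SE 0.19) for sg2 and -0.21 (SE 0.20) for sg3, and NTC2 differed from NTC1 by -0.20 (SE 0.23). Between guide lines, sg1 differed from sg2 by -1.09 (SE 0.23), sg2 from sg3 by 0.78 (SE 0.22), and sg1 from sg3 by -0.31 (SE 0.24). Averaged over lines these cancelled, to 1.81 ± 0.739 CPM in guide lines (SD, n = 3) and 1.78 ± 0.172 CPM in NTC lines (SD, n = 2), a log2 fold change of 0.03 (SE 0.25).

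Over the 5 lines BST2 spanned 1.06 on the log2 scale, of which the guide lines gave the whole. It was followed by TRIM22 at 0.82, OAS2 at 0.75, IFIT2 at 0.74 and IRF9 at 0.64, all of them close to or under 1 CPM on average, where counting error is largest. When the 3 guide lines were tested for any difference between them, no member was called by edgeR or DESeq2, where edgeR called 0% of all 16411 genes. At an unadjusted p under 0.05 no member other than BST2 passed, where 1.38% of all genes did. As BST2 was singled out for this spread, its own p is no test of it. With the letter as a replicate block no member was called by edgeR, where 0.0487% of all genes were.

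**Figure D4:**
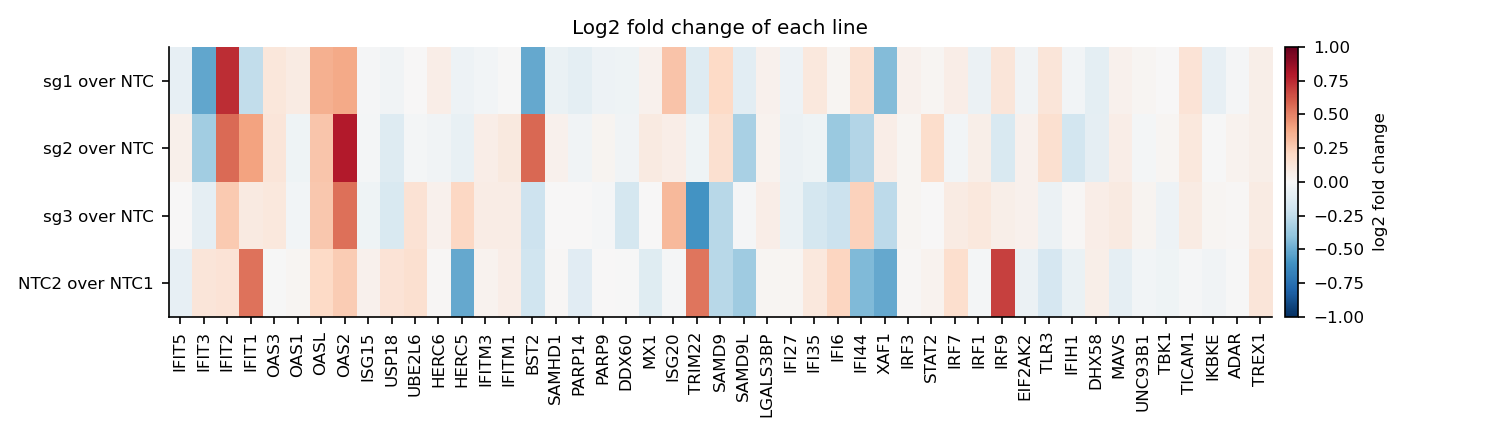
Log2 fold change of each member (columns, by role) for sg1, sg2 and sg3 over the NTC lines and for NTC2 over NTC1 (rows), red for higher and blue for lower. BST2 is blue for sg1 and red for sg2, and IRF9 and HERC5 stand out between the NTC lines.

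The heat map of single lines shows pale colours for most members and stronger ones for the sparse members. The guide lines were each compared with the same 2 NTC lines, so the comparisons share their controls. These fits, like those among guide lines and between NTC lines, had no term for the letter, so its difference was part of their scatter. With the letter as a replicate block no member was called, where 0.0244% of all genes were for sg1, 0.0122% for sg2 and 0.0366% for sg3. Without that block no member was called for sg1, sg2 or sg3 either, where 0.00609% of all genes (RNASE1 alone) were called for each. At an unadjusted p under 0.05 there were 2 members for sg1, where 2.30% of all genes passed, 2 for sg2, where 1.82% did, and 0 for sg3, where 2.16% did. In sg1 they were BST2 and IFIT2, with a log2 fold change of 0.74 (SE 0.31) for IFIT2. In sg2 they were BST2 and STAT2, the partner of IRF9, with a log2 fold change of 0.17 (SE 0.07) for STAT2. As BST2 was singled out for its spread among lines, its part in both counts is no test. STAT2 was at 25.2 CPM in B and 24.9 CPM in A of sg2, against 23.02 and 22.0 CPM in NTC2 and 22.97 and 20.9 CPM in NTC1. The lowest p among negative fold changes of sg2 was that of IFI6, with -0.37 (SE 0.18, adjusted p = 1). In sg3 it was that of TRIM22, a restriction factor, with -0.60 (SE 0.30, adjusted p = 1, edgeR). TRIM22 was at 0.763 CPM in B and 0.794 CPM in A of sg3, at 1.05 and 1.11 CPM in sg1 and at 1.15 and 1.14 CPM in sg2. It was at 1.45 and 1.39 CPM in NTC2 and at 1.33 and 0.618 CPM in NTC1. Library A of NTC1 lay below both sg3 libraries, and the log2 fold change of TRIM22 in sg3 was -0.82 without that library and -0.27 without library B of NTC1. OAS3 had log2 fold changes of 0.11 (SE 0.06) in sg1, 0.12 (SE 0.06) in sg2 and 0.11 (SE 0.06) in sg3, nearly equal in the 3 lines.

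NTC2 and NTC1 give the difference between lines with no guide to RNASE1. No member was called between them, where 0% of all genes were called, and 1 member passed an unadjusted p of 0.05, where 1.72% of all genes did. HERC5, the ligase that attaches ISG15, was at 2.04 CPM in B and 1.98 CPM in A of NTC2, against 3.19 and 2.54 CPM in NTC1. Its log2 fold change was -0.51 (SE 0.18, adjusted p = 1, edgeR). HERC5 was at 2.33 CPM in B and 2.30 CPM in A of sg1, at 2.44 and 2.13 CPM in sg2 and at 2.72 and 2.83 CPM in sg3, all above NTC2 and overlapping NTC1. IRF9 was at 1.33 and 0.967 CPM in NTC2, against 0.852 and 0.570 CPM in NTC1, a log2 fold change of 0.68 (SE 0.34, adjusted p = 1, edgeR). It was at 1.02 and 0.944 CPM in sg1, at 0.961 and 0.671 CPM in sg2 and at 1.12 and 0.771 CPM in sg3, overlapping both NTC lines. IRF9 shares exon sequence on the same strand with AL136295.5, whose counts were 0 in B and 15 in A of NTC2 and 152 and 99 in NTC1, and the part of that overlap in the result was not tested. Log2 fold changes of the members ran from -0.51 to 0.68 between these 2 NTC lines. Against the NTC lines they ran from -0.52 to 0.74 for sg1, from -0.37 to 0.79 for sg2 and from -0.60 to 0.55 for sg3.

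Letter B was compared with letter A within lines. In that comparison 14 of 44 members tested (31.8%) were called between B and A libraries, where 32.1% of all 15462 genes were called, a share near that of all genes. Of the 14, 6 were higher in B, where 15.9% of all genes were higher, and 8 lower, where 16.2% were lower. OAS2, SAMD9L and XAF1 were too low to be tested. In 17 members (38.6%) B differed from A in the same direction in all 5 lines, where 36.2% of all genes tested did. How many of all genes had every B library beyond every A library was not counted, so such statements on single members are descriptions. The labels do not say what the letter stands for.

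**Figure D5:**
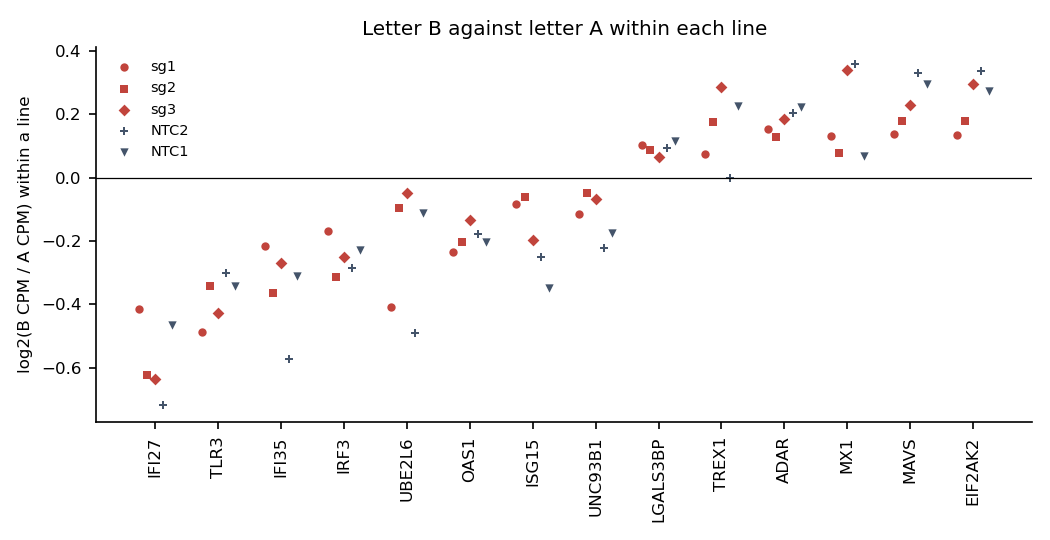
Log2 ratio of letter B to letter A CPM within each of 5 lines (symbols) for the 14 members called by letter, guide lines in red and NTC lines in dark blue. IFI27, TLR3 and IFI35 lie furthest below 0 and EIF2AK2, MAVS and MX1 furthest above it.

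In the plot of letter differences, each called member keeps its sign in every line except TREX1, which was level in NTC2. Among the called members the largest difference was that of IFI27, an interferon-induced mitochondrial protein. IFIT3, which was not called, had -0.59 (SE 0.23, adjusted p = 0.0596, edgeR), with every B library below every A library, and IFIT1, also not called, had -0.57 (SE 0.27). In B libraries IFI27 was at 7.49, 6.86, 6.77, 6.91 and 7.58 CPM (sg1, sg2, sg3, NTC2, NTC1), and in A libraries at 10.0, 10.6, 10.5, 11.4 and 10.5 CPM. Its log2 fold change was -0.57 (SE 0.07, adjusted p = 2.4e-05, edgeR), and no B library reached an A library. TLR3, the receptor of double-stranded RNA in endosomes, was at 7.55, 8.22, 6.84, 7.07 and 7.82 CPM in B, against 10.6, 10.4, 9.20, 8.71 and 9.91 CPM in A in the same order of lines. TLR3 fell by 0.38 on the log2 scale (SE 0.06). IRF3, the factor that TBK1 activates, was at 51.8, 48.2, 49.6, 48.4 and 49.0 CPM in B, against 58.3, 59.9, 58.9, 59.0 and 57.5 CPM in A. IRF3 fell by 0.25 (SE 0.03), and BCL2L12, which overlaps it on the other strand and cannot be told apart from it there without stranded reads, fell by 0.14 (SE 0.04).

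The adaptor and the sensor kinase went the other way. MAVS averaged 123 ± 3.54 CPM in B and 105 ± 5.99 CPM in A (SD, n = 5 each), a log2 fold change of 0.23 (SE 0.03). EIF2AK2 was at 75.3, 80.9, 83.7, 80.6 and 82.3 CPM in B, against 68.6, 71.4, 68.2, 63.9 and 68.1 CPM in A, and rose by 0.24 (SE 0.03). Neither gene's letters overlapped. ADAR averaged 403 ± 4.69 CPM in B and 356 ± 8.16 CPM in A, and rose by 0.18 (SE 0.02). MX1, a dynamin-like GTPase, was at 8.13, 8.29, 8.48, 8.17 and 8.06 CPM in B, against 7.43, 7.85, 6.70, 6.37 and 7.70 CPM in A, a log2 fold change of 0.19 (SE 0.07, adjusted p = 0.0459, edgeR). LGALS3BP rose by 0.09 (SE 0.02), with its lowest B library at 637 CPM and its highest A library at 631 CPM. TREX1 was at 14.4, 14.9, 15.7, 14.0 and 13.9 CPM in B, against 13.7, 13.2, 12.8, 14.0 and 11.9 CPM in A, a log2 fold change of 0.15 (SE 0.06, adjusted p = 0.0466, edgeR). The calls of MX1 and TREX1 stood close to the threshold and were lost by DESeq2. MX1 was not called without any 1 library in turn (adjusted p 0.0528 to 0.180, edgeR), nor was TREX1 without a library of sg2, sg3 or NTC1 (adjusted p 0.105 to 0.200, edgeR).

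The other called members were lower in B. OAS1 was at 29.8, 27.6, 28.6, 28.9 and 28.3 CPM in B, against 35.0, 31.8, 31.4, 32.7 and 32.5 CPM in A, and fell by 0.19 (SE 0.03). ISG15 was at 34.6, 34.7, 32.4, 33.3 and 31.1 CPM in B, against 36.7, 36.2, 37.2, 39.6 and 39.6 CPM in A, and fell by 0.19 (SE 0.04). In both, every B library was under every A library. IFI35 was at 8.90, 7.59, 7.17, 7.45 and 7.69 CPM in B, against 10.3, 9.78, 8.64, 11.1 and 9.53 CPM in A, and fell by 0.35 (SE 0.07). UBE2L6, the conjugating enzyme for ISG15, was at 11.4, 12.7, 14.4, 11.6 and 12.1 CPM in B, against 15.2, 13.5, 14.9, 16.3 and 13.03 CPM in A, and fell by 0.23 (SE 0.07). These letters overlapped across lines although B was lower within each line. UNC93B1 was at 49.5, 49.3, 50.6, 46.4 and 48.2 CPM in B, against 53.6, 51.0, 53.0, 54.2 and 54.4 CPM in A, and fell by 0.13 (SE 0.03). UBE2L6 was not called without a library of sg1 or NTC2 (adjusted p 0.062 to 0.0891, edgeR), nor UNC93B1 without one of NTC1 (adjusted p 0.0543 and 0.0582, edgeR). BST2 had a letter difference of -0.04 (SE 0.15) and OAS3 one of -0.0030 (SE 0.03). Of 41 other pathway genes tested 9 were called (22.0%), where 32.1% of all genes were, among them DICER1 at 0.27 (SE 0.04) and TMEM173, the adaptor STING, at -0.21 (SE 0.04).

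Whether the guide effect depended on the letter was tested as an interaction on 10 libraries. The fit had terms for group (guide or NTC) and letter but none for line, so B and A of a line counted as independent. No member was called, where 0.00609% of all genes were called, and 5 members passed an unadjusted p of 0.05, where 5.45% of all genes did. OAS3 had the lowest p of these, with an interaction of 0.16 on the log2 scale (SE 0.05, adjusted p = 0.882, edgeR). In the guide lines its B libraries were above the A library of the same line, and in the NTC lines below it. ISG15 had 0.19 (SE 0.07) and IRF1 0.30 (SE 0.14), while MAVS had -0.13 (SE 0.06) and PARP14 -0.16 (SE 0.08). With line in place of group in the fit, no member was called, where 0% of all genes were.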

How the data were processed

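For 10 libraries of polyadenylated RNA the authors deposited a table of expected counts, estimated by RSEM per the file name; per the submitters' processing notes tools included TopHat2 2.0.8, CASAVA 1.8.2 and FastQC 0.11.2, with build hg38. RSEM divides reads that fit several genes, 7.12% of values were not whole, and per the labels' protocols strand was not marked, so overlapping genes and close copies are uncertain. Counts were rounded, moving none by more than 0.5. Guide and NTC lines were compared on B and A summed per line, single lines and the letter on 10 libraries, with edgeR 4.0.16 (R 4.3.3, glmQLFTest, TMM, filterByExpr, two-sided, Benjamini-Hochberg over all genes tested, threshold 0.05); DESeq2 1.42.0 was an alternative. The scripts were tested on simulated data. SE was derived from each fold change and F. Same-letter libraries deviated together: all 10 pairs of lines had correlations over 0.1 (0.189 to 0.361 over 16411 genes), so the letter pairs libraries, and a fit with it as a block was an alternative. Counts of the libraries of a line differed by 10.7 to 22.0 times the sampling variance. Exon lengths and positions are from GENCODE 29, promoters from RefSeq. Every library value is given for members called in any comparison, with the lowest p in each direction, or with the highest CPM, and for BST2. The members, lists and tests were chosen with earlier results of these data known.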

Additional observations from a re-analysis of the deposited data

Results flagged for a closer look

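Among 94 groups of guide or NTC libraries, 1 library lay far from the rest of its group in 3, where a rate of 1 in 20 groups would give about 4.7 by chance. TRIM22 was at 0.618 CPM in library A of NTC1, the next NTC library being at 1.33 CPM. DHX58 was at 5.65 CPM in library B of sg3, the next guide library being at 4.76 CPM. TREX1 was at 11.9 CPM in library A of NTC1, the next NTC library being at 13.9 CPM.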

How the results depend on the processing

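No member was called for guide against NTC lines under any alternative, nor for a single guide line, NTC2 against NTC1 or the interaction. Leaving out 1 library or line kept these counts at 0, and as a replicate block the letter changed no call of a member: with it in the fit of line means, 0 members were called, and OAS3 was at 0.115 (adjusted p = 0.302). Over all alternatives OAS3 ran from 0.0329 to 0.195 (adjusted p 0.0613 to 0.924). Among guide lines 1 member, BST2, was called with no filter on low counts, a setting that called 0.495% of all genes, against 0% with the filter. As BST2 was singled out for this spread, that call is no test of it. For letter B against A, 11 to 13 of 44 or 45 members tested were called without 1 library or line, where 22.3% to 32.7% of all genes were. By DESeq2 12 of 44 were called, where 26.1% of all genes were. With no filter 13 of 47 were called, where 17.8% of all genes were. That setting tested 28488 genes, against 15462 in the main fit, the added ones at low counts. Among genes at a mean of 5 CPM or more, 14 of 31 members were called, where 44.8% of all genes were. With no replicate block 14 of 44 were called, where 31.6% of all genes were. BST2, guide against NTC, reversed to -0.0487 with the line means blocked by letter, -0.0476 in A alone, -0.353 without sg2, -0.0671 without NTC2 and -0.0672 with block and GC correction; leaving out 1 library gave -0.0573 to 0.0935, and 1 line -0.353 to 0.234. ADAR reversed to -0.0142 in B alone and -0.00117 without sg2, with -0.0464 to 0.0663 over all left-out libraries and lines. For guide against NTC lines, leaving out 1 library left its line with 1 letter, so the letter was no longer balanced between the groups. The part of the letter in these values was not tested. MAVS ran from -0.0132 to 0.142 and BST2 by letter from -0.155 to 0.0393, with 0.00529 without sg1 and 0.0392 without NTC2. Corrections for GC were added after seeing the data. Of 939 alternative values 876 were scored as the same, and the cause of the others was not tested. A fold change was the same if it kept direction and side of the threshold. The p of BST2 among guide lines had only to keep its side. A count of members called was the same if equal to the main count or within 1.5-fold of it, so some calls could be lost. For guide against NTC lines DESeq2 called 55 of all genes, against 4 by edgeR, none a member. Depth limits members near or under 1 CPM, where intervals were widest.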
